A study of Homo sapiens with 6 samples.

Results

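The cytosolic chaperonin CCT, also called TRiC, is a barrel of 2 stacked rings built from paralogous subunits that are each the product of a different gene. Values are given here for 7 of these genes, CCT2, CCT3, CCT4, CCT5, CCT6A, CCT7 and CCT8, chosen by gene name, out of 1099 genes in the authors' deposited table. The gene of the remaining ubiquitous subunit, TCP1, was not among the listed genes and was not analysed here. All 7 carry the annotation of the chaperonin-containing T-complex and the TCP-1/cpn60 domain in the authors' table, and 0 other listed genes carry either.

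As background, unfolded actin and tubulin enter the cavity of the barrel, often handed over by the co-chaperone prefoldin, and are released folded after ATP hydrolysis closes a lid formed by the subunits themselves. Other clients include cell cycle regulators and proteins with WD40 repeats. Each ring holds a single copy of every subunit, so a complete complex needs them in equal amounts. CCT genes are generally highly expressed in dividing and transformed cells.

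Poly(A) RNA was sequenced from 6 human libraries, labelled as the lung cancer line A549 with genotype WT. Cells had been cultured in RPMI-1640 with serum and kept for 24 h with vehicle (DMSO, 3 libraries) or with F/B extract (3 libraries), which the series title gives as an extract of Flos Sophorae Immaturus and broccoli seed. The labels give no dose and do not say that replicates came from separate cultures, so p-values cover the spread between libraries alone, and that spread may be technical. The library names carry the letters AGS, the name of a gastric line. A549 is known to lack a chromosome 9 segment with MTAP, CDKN2A and CDKN2B, and of these MTAP was listed, at 48.9 to 60.5 TPM. Of 7 lung epithelial markers 0 were listed, and of 12 gastrointestinal markers 4 were, with a summed level of 224 to 341 TPM. Of 5 leukocyte markers 0 were listed, and of 6 fibroblast and endothelial markers 1 was, COL1A1. Since genes were listed for their change, absence from the list does not show that a marker was not expressed. The cells are therefore called by their label only.

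The table is a selection made on this comparison: its 1099 genes are those with the smallest p-values among 11289 genes tested by the authors, or 9.74% of them. A listed CCT gene had therefore already differed between the groups in the authors' test, and neither the number of subunits listed nor the number that pass a test on the same libraries is independent evidence. Estimated counts over the listed genes summed to 3084337 to 4640114 per library, which is not sequencing depth. The CCT genes had 3827 to 11652 estimated counts per library, where counting error alone gives a coefficient of variation of at most 1.62%.

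The genes lie apart in the genome (GRCh38, GENCODE release 29). CCT3 (ENSG00000163468) is on chromosome 1, 156308968 to 156367873, minus strand. CCT4 (ENSG00000115484) and CCT7 (ENSG00000135624) are on chromosome 2, at 61868089 to 61888804, minus strand, and at 73233420 to 73253021, plus strand. CCT5 (ENSG00000150753) is on chromosome 5, 10249921 to 10266412, plus strand, and CCT6A (ENSG00000146731) on chromosome 7, 56051630 to 56063989, plus strand. CCT2 (ENSG00000166226) is on chromosome 12, 69585334 to 69601570, plus strand, and CCT8 (ENSG00000156261) on chromosome 21, 29055805 to 29073797, minus strand. All are protein-coding. Pseudogenes named after a member are annotated for CCT6A (4), CCT4, CCT5 and CCT7 (2 each) and CCT8 (1), and reads shared with such copies could be split by the counting. Estimated counts were whole numbers in all 6 libraries for CCT2, CCT3, CCT4 and CCT7 and lay at most 0.35 of a read from a whole number for the others, where 31.8% to 35.9% of all listed values per library were not whole.

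Promoter windows of the 7 genes (250 bases before to 50 after the start site, RefSeq, GRCh38.p14) were read for shared motifs. Windows were found for 6 of the 7 genes, with none for CCT6A. The 3 windows shown are those with both a CCAAT box, the motif of NF-Y, and a GGGCGG box, the motif of SP factors. Sequences run 5′ to 3′ along the gene's strand, with these boxes, on either strand, in capitals.
CCT2 promoter, chr12:69585209-69585508, plus strand: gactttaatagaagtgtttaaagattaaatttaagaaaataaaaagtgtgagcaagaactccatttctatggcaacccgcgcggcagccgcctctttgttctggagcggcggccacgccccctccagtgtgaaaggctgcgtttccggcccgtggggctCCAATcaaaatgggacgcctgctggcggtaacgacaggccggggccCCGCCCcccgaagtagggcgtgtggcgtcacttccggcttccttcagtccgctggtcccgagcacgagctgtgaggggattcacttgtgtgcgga
CCT3 promoter, chr1:156338243-156338542, minus strand: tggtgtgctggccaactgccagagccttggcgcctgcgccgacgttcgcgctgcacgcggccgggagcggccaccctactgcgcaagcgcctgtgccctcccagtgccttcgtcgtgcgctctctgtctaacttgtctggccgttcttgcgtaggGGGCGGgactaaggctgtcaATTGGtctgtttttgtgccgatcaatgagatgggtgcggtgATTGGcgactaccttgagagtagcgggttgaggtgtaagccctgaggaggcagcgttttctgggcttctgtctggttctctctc
CCT8 promoter, chr21:29073599-29073898, minus strand: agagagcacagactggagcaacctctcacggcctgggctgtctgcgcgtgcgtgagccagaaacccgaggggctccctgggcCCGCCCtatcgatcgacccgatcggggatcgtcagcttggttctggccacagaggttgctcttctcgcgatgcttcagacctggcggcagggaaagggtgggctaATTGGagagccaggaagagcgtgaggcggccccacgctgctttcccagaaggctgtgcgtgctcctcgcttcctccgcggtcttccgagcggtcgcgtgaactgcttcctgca
The first base of the CCAAT box stood at -91 in CCT2 and -63 in CCT8, and CCT3 held 2 boxes at -75 and -34, counted from the start site as 0, all but that of CCT2 on the opposite strand. The 6 genes have 8 windows, since CCT2 and CCT4 have 2 each. A CCAAT box was found in 3 of the 8 (37.5%), near the share of all 35116 windows (34.6%). A GGGCGG box was found in 5 of the 8 (62.5%; CCT7 and the second CCT2 window in addition) and in 45.0% of all windows. The ETS motif CCGGAAG (10.3% of all windows) and the core of the heat shock element, GAANNTTC (6.77%), were each found in 1 of the 8, both in CCT2, the latter in the second window at 69585639 to 69585938. The E-box CACGTG (7.26%), the NRF1 motif (1.24%) and the cyclic AMP element TGACGTCA (1.85%) were found in 0 of the 8. These matches describe letters in the windows only, and no motif was found in the windows of all 6 genes. The windows of CCT3, CCT5 and CCT7 lie wholly inside the gene bounds given above. Sequence before the outermost annotated start of these genes was thus not read. The lack of both boxes in the CCT5 window therefore does not cover other starts of that gene.

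Levels of the subunits were compared as TPM, which is per length. CCT3, the gamma subunit, was the highest in each library and CCT4, the delta subunit, the lowest in each. CCT3 was at 409.9, 438.8 and 438.2 TPM in vehicle replicates 1 to 3 and at 396, 398 and 378 in extract replicates 1 to 3. CCT4 was at 174, 171 and 169 TPM with vehicle and at 161, 161 and 175 with extract. The highest subunit was thus 2.15 to 2.59 times the lowest within a library. The other 5 lay close together in the vehicle libraries, from 256 TPM for CCT6A to 299 TPM for CCT8.

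**Figure D1:**
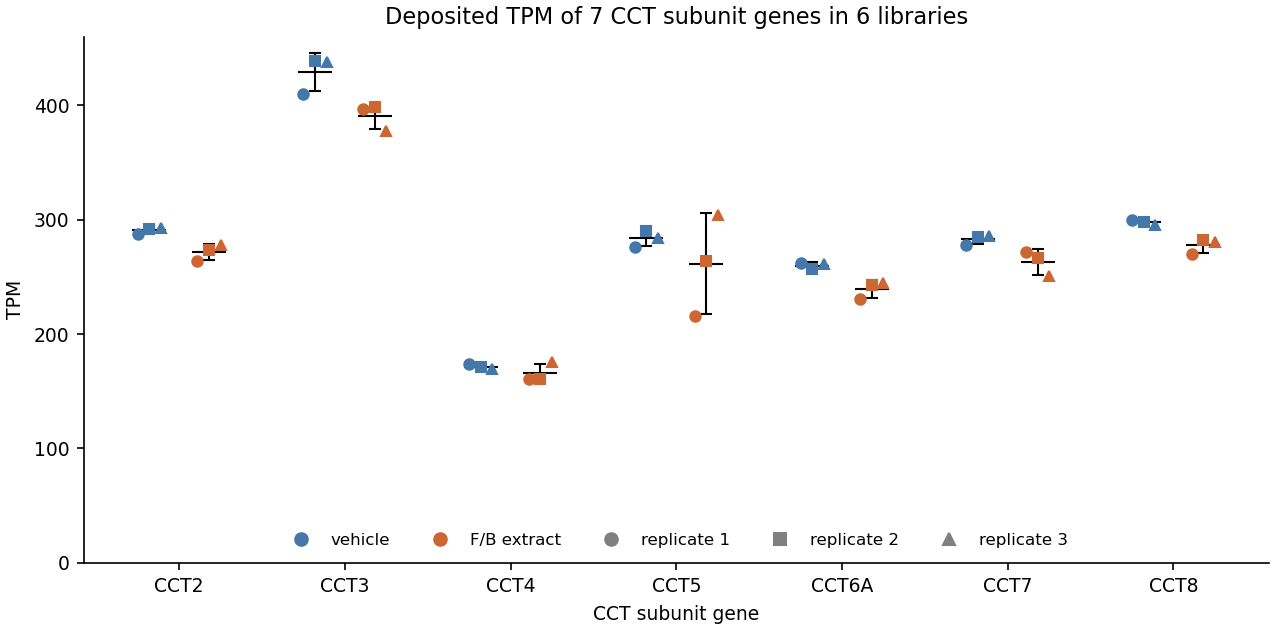
Deposited TPM (y axis) of the 7 CCT subunit genes (x axis) in each vehicle and F/B extract library (symbols by replicate), with the mean and SD of the 3 libraries per group as bars. CCT3 is highest and CCT4 lowest in every library, and CCT5 with extract spreads from 216 to 304 TPM.

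In order of mean TPM, CCT3 was followed by CCT8 (theta), CCT2 (beta), CCT7 (eta), CCT5 (epsilon), CCT6A (zeta) and CCT4. CCT3 stood 0.51 ± 0.06 above CCT8 as a log2 difference within libraries (SD, n = 6), and CCT6A stood 0.57 ± 0.05 above CCT4. Between these ends the steps were small. CCT8 exceeded CCT2 in 6 of 6 libraries, but by 0.03 ± 0.02 only. CCT2 and CCT7, CCT7 and CCT5, and CCT5 and CCT6A differed by 0.04 ± 0.06, 0.01 ± 0.20 and 0.12 ± 0.13, each less than its own spread. The levels ranked 133 (CCT3) to 260 (CCT4) among the 1099 listed genes.

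The 7 genes together summed to 1988, 2031 and 2027 TPM with vehicle and to 1810, 1889 and 1911 TPM with extract, so the groups did not overlap and the mean was 7.20% lower. On the scale of normalised counts (estimated counts over size factors, which were inferred from the authors' fold changes) the mean sum was 12.2% lower. In bulk RNA, fewer cells that express a gene and less RNA per cell cannot be told apart.

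The share of each subunit in the summed TPM changed little. CCT2 made up 14.4% ± 0.06 with vehicle and 14.5% ± 0.06 with extract (SD, n = 3 each), CCT8 14.8% ± 0.26 and 14.8% ± 0.16, and CCT6A 12.9% ± 0.28 and 12.8% ± 0.07. CCT3 held 21.3% ± 0.57 and 20.9% ± 1.08, and CCT4 8.52% ± 0.21 and 8.86% ± 0.33. For CCT7 the means were 14.03% ± 0.06 and 14.09% ± 0.97, and for CCT5 14.1% ± 0.19 and 13.9% ± 1.99. The differences for CCT3, CCT5, CCT6A, CCT7 and CCT8 were smaller than the larger SD of the pair of groups, that for CCT4 was about equal to it, and that for CCT2 was above it, although the shares of CCT2 overlapped between the groups.

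With extract, normalised counts were lower than with vehicle for all 7 genes, by 9.13% (CCT4) to 13.8% (CCT3). By edgeR's quasi-likelihood test, adjusted over the 11289 genes, 5 of the 7 fell, CCT2, CCT3, CCT5, CCT6A and CCT8, while CCT4 and CCT7 did not pass. Of all listed genes 53.1% were called lower by the same rule, a share that counts in the 387 genes that were higher. Among the 712 lower genes 584 were called, which is the background these selected genes should be read against. Shares beside other counts of calls are also of all listed genes. The 5 calls depended on single libraries and on the scale: 4 of 7 passed without vehicle replicate 1 (background 42.2%) and 6 without extract replicate 1 (51.9%) by edgeR. Without vehicle replicate 2 (background 11.6%) there were 0 calls, and dropping vehicle replicate 3 (20.5%) or extract replicate 2 (16.5%) also left 0. Leaving out extract replicate 3 left 2 (39.8%). In these 6 fits all 7 kept an unadjusted p under 0.05, as they did in the DESeq2 Wald test and limma-voom on all 6 libraries, which called 7 (background 62.6%) and 5 (53.8%). Being listed already took a p of at most 0.00535 in the authors' test on these libraries. An unadjusted p under 0.05 therefore adds no evidence, and the share of all listed genes under it is not given here.

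**Figure D2:**
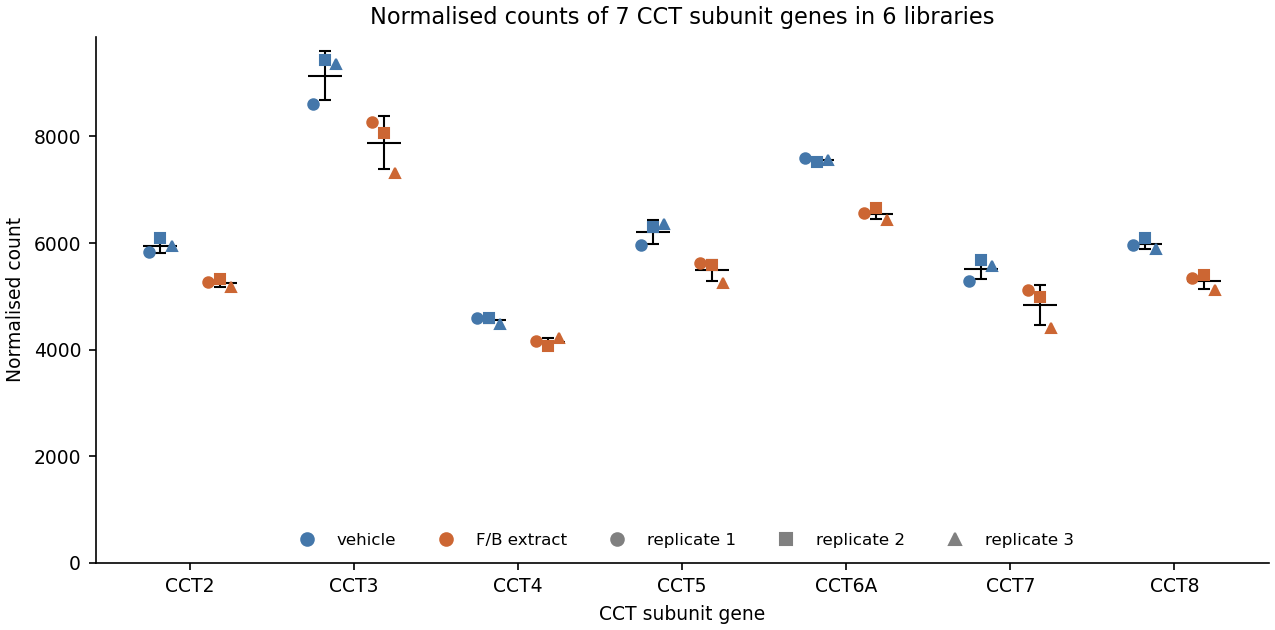
Normalised counts (y axis, from 0) of the 7 CCT subunit genes (x axis) in each library (symbols by replicate), with the mean and SD of the 3 libraries per group as bars. In each gene the 3 extract libraries sit below the 3 vehicle libraries, with the narrowest gap for CCT7 (highest extract 5120, lowest vehicle 5296) and the widest for CCT6A (6649 and 7526).

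CCT6A encodes the ubiquitous form of the zeta subunit, whose testis form comes from CCT6B. It had the smallest adjusted p of the 7. Its normalised counts were 7593, 7526 and 7565 with vehicle and 6567, 6649 and 6435 with extract. The vehicle libraries differed by a coefficient of variation of 0.445%, and the extract libraries all lay lower. The change was -0.21 on the log2 scale (SE 0.04), with an adjusted p of 0.0111 by edgeR.

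CCT2 had 5826, 6086 and 5943 normalised counts with vehicle and 5266, 5330 and 5173 with extract. The gap between the groups was wider than the range within either. It fell by 0.18 log2 units (SE 0.04), with an adjusted p of 0.0221 by edgeR. CCT8 was close to it in level and in change, with 5965, 6096 and 5890 with vehicle and 5343, 5394 and 5124 with extract. It changed by -0.18 (SE 0.04), with an adjusted p of 0.0248 by edgeR.

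CCT3 had 8616, 9441 and 9359 normalised counts with vehicle and 8265, 8070 and 7314 with extract. Vehicle replicate 1 was the low one of its group and extract replicate 3 that of the other, and both groups were spread more widely than those of CCT6A (coefficients of variation 4.98% and 6.37%). The log2 fold change was the lowest of the 7, at -0.21 (SE 0.06), but the adjusted p by edgeR was only just under the threshold, at 0.0482. CCT5 had 5955, 6302 and 6366 with vehicle and 5624, 5581 and 5254 with extract, and changed by -0.18 (SE 0.05), with an adjusted p of 0.0404 by edgeR.

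CCT7 had 5296, 5683 and 5576 normalised counts with vehicle and 5120, 4981 and 4411 with extract. Extract replicate 3 was well below the other extract libraries (coefficient of variation 7.77%). The log2 fold change of -0.19 (SE 0.06) was as low as that of the called genes, yet missed the threshold (edgeR adjusted p = 0.0969). It passed without extract replicate 1, at -0.23 with an adjusted p of 0.0322 by edgeR. CCT4 had 4603, 4598 and 4484 with vehicle and 4160, 4061 and 4213 with extract. The spread was small, but so was the log2 fold change, at -0.14 (SE 0.04), and edgeR gave an adjusted p of 0.0598.

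In the authors' deposited table, where folds are vehicle over extract, these genes ran from 1.10 (CCT4) to 1.16 (CCT3), with an adjusted p from 0.000120 (CCT6A) to 0.0489 (CCT4). By p-value CCT6A was at rank 219 of the 1099 listed genes and CCT4 at rank 1043, so CCT4 was among the last genes to enter the list.

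The decreases were small for this list. The median log2 fold change of the 7 genes was -0.18, against -0.22 over all listed genes and -0.29 over the 712 listed genes that were lower with extract. The decrease of CCT4 was larger than that of 1.12% of those 712 genes, and that of CCT3, with the lowest value of the 7, larger than that of 20.5%. All 7 genes had groups that did not overlap in normalised counts, as did 702 of the 712 lower genes, or 63.9% of all listed genes. The trait is thus general among the lower genes of this list. In TPM the groups did not overlap for 5 of 7, and CCT4 and CCT5 overlapped. Of all listed genes, the higher ones counted in, 44.2% were lower without overlap in TPM.

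The size of the change rested on how the libraries were scaled. With the scale behind the TPM values the members' median was -0.10, and 0 of 7 were called by edgeR (19.5% of listed genes were). An unadjusted p under 0.05 was seen for 6, but the genes had been listed for a small p on these libraries. With sums over the listed genes, or TMM or DESeq2 size factors computed from them, the median was -0.04, -0.03 and -0.01, with 0 of 7 called and 0 at an unadjusted p under 0.05, where 11.5%, 7.92% and 7.83% of listed genes were called lower. CCT4 turned to 0.02 with TMM and to 0.04 with the DESeq2 factors, and the other 6 genes stayed below 0. Over all listed genes the calls went from 584 lower and 320 higher to 214 and 371 with the TPM scale, 126 and 386 with sums, 87 and 385 with TMM and 86 and 387 with the DESeq2 factors. These last 3 scales centre on genes that had been selected as changed, and they raise the median of all listed genes by 0.14, 0.15 and 0.17.

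**Figure D3:**
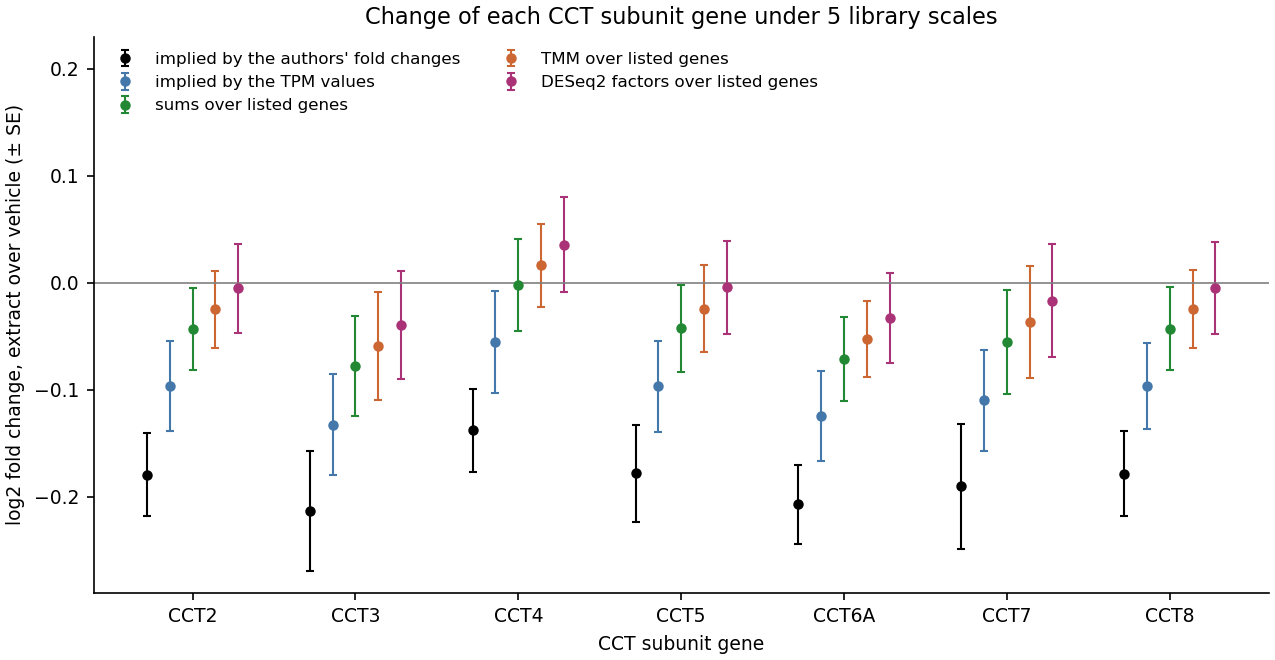
log2 fold change of each CCT subunit gene, extract over vehicle, with its SE from edgeR (y axis), under 5 library scales (colours). All 7 genes shift upward together from a median of -0.18 on the scale implied by the authors' fold changes to -0.01 with DESeq2 factors over listed genes, where CCT4 lies above 0.

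Whether the subunits changed by equal amounts does not depend on the library scale, since the ratio of 2 genes within a library cancels it. In 21 pairs, the log2 ratio differed between the groups by 0.03 at the median and by 0.08 at most. The pairs hold listed genes only, and no listed gene that was lower had a log2 fold change nearer to 0 than -0.115. A subunit with little change could therefore not enter, which limits how far the pairs could differ. Pair differences of other listed genes were not analysed here. The largest was CCT3 over CCT4, at 0.90, 1.04 and 1.06 with vehicle and 0.99, 0.99 and 0.80 with extract, so the groups overlapped. By an exact two-sided permutation test over the 6 libraries, which cannot go below 0.1, the smallest p of any pair was above that limit, and after adjustment over the 21 pairs the smallest was 0.969. In 20 of 21 pairs the difference was within the larger SD of the pair of groups. The exception was CCT6A over CCT4, at 0.72, 0.71 and 0.75 with vehicle and 0.66, 0.71 and 0.61 with extract, a difference of 0.07 with an SD of 0.05 in the extract group. A p that misses the threshold does not show equal changes, but leaving out each library in turn kept the largest difference of any pair between 0.06 and 0.12 on the log2 scale. The closest pair was CCT2 and CCT8, whose log2 ratio was -0.03, -0.002 and 0.01 with vehicle and -0.02, -0.02 and 0.01 with extract.

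Within groups the subunits did not all follow the same libraries. CCT3, CCT7 and CCT5 shared a pattern, below their group mean in vehicle replicate 1 by 0.08, 0.06 and 0.06 on the log2 scale and in extract replicate 3 by 0.11, 0.13 and 0.06. In extract replicate 3 the median of all listed genes was at -0.02, so these genes were further down there than most. CCT2, CCT6A and CCT8 were also lowest of the extract group in that library, by 0.02, 0.03 and 0.04. CCT4 went the other way and was at 0.02 above its group mean. The ratio of CCT3 to CCT7 accordingly held in a narrow range, with a log2 value from 0.69 to 0.75 over the 6 libraries. The order of libraries within a group depended on the scale. In TPM, extract replicate 3 was the lowest extract library for CCT3 and CCT7 only. It was the highest for CCT2 (264, 273 and 278 in extract replicates 1 to 3) and CCT6A (231, 243 and 245). For CCT8 it was the middle one (270, 283 and 280). Its size factor was 0.935 as used and 0.874 on the TPM scale.

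**Figure D4:**
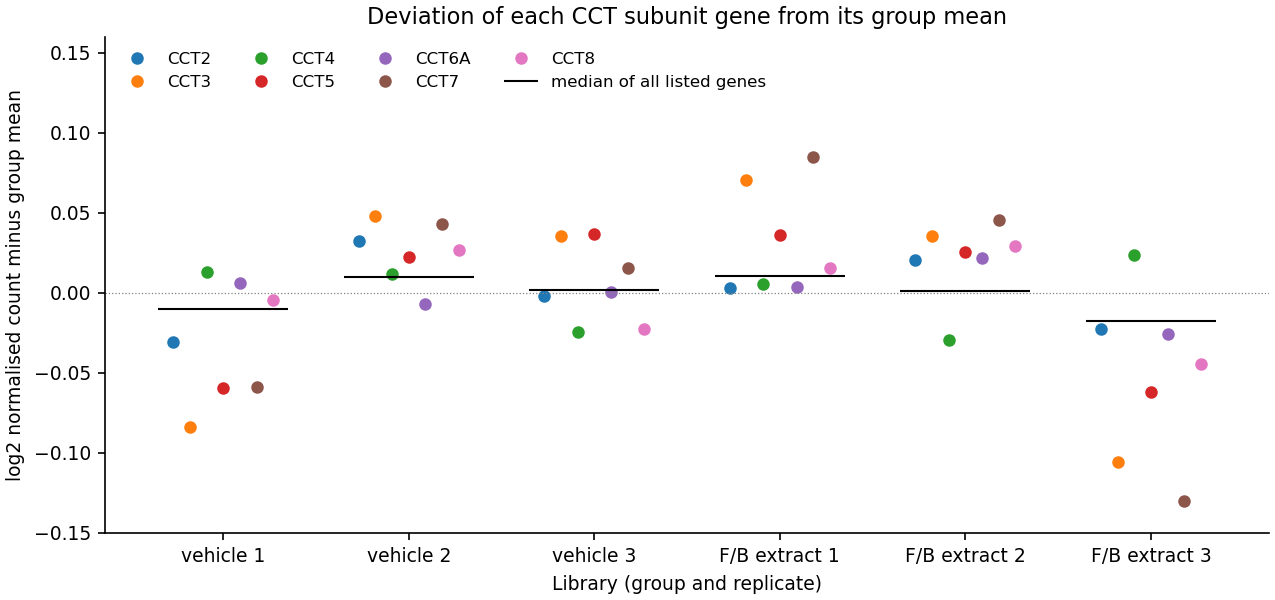
log2 normalised count of each CCT subunit gene (colours) minus its group mean (y axis) in each library (x axis), with the median over all listed genes as a black bar. In extract replicate 3, CCT7 and CCT3 are at -0.13 and -0.11 and CCT4 is at 0.02.

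For CCT5, the epsilon subunit, deposited TPM and counts ranked the libraries differently. Its TPM was 276, 290 and 284 with vehicle and 216, 264 and 304 with extract, so that extract replicate 3 had the highest TPM of the 6 libraries and also the lowest normalised count. Estimated count per TPM, after the library scale was removed, ran from 0.858 to 1.20 of the gene's own mean, with a highest value 1.40 times the lowest. For the other 6 members the highest was 1.007 to 1.03 times the lowest, and the median over all listed genes was 1.07. CCT5 ranked 44 of 1099 by this measure. TPM divides a count by a transcript length. GENCODE gives CCT5 coding transcripts of 135 to 3675 bases. Ranges are also annotated for CCT7 (249 to 2031), CCT3 (513 to 2150) and CCT8 (556 to 2005), whose highest count per TPM was 1.03, 1.02 and 1.01 times the lowest. Annotated ranges do not tell which transcripts were expressed. The lengths behind the deposited TPM in each library were not analysed here, and their part in the CCT5 values was not tested.

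**Figure D5:**
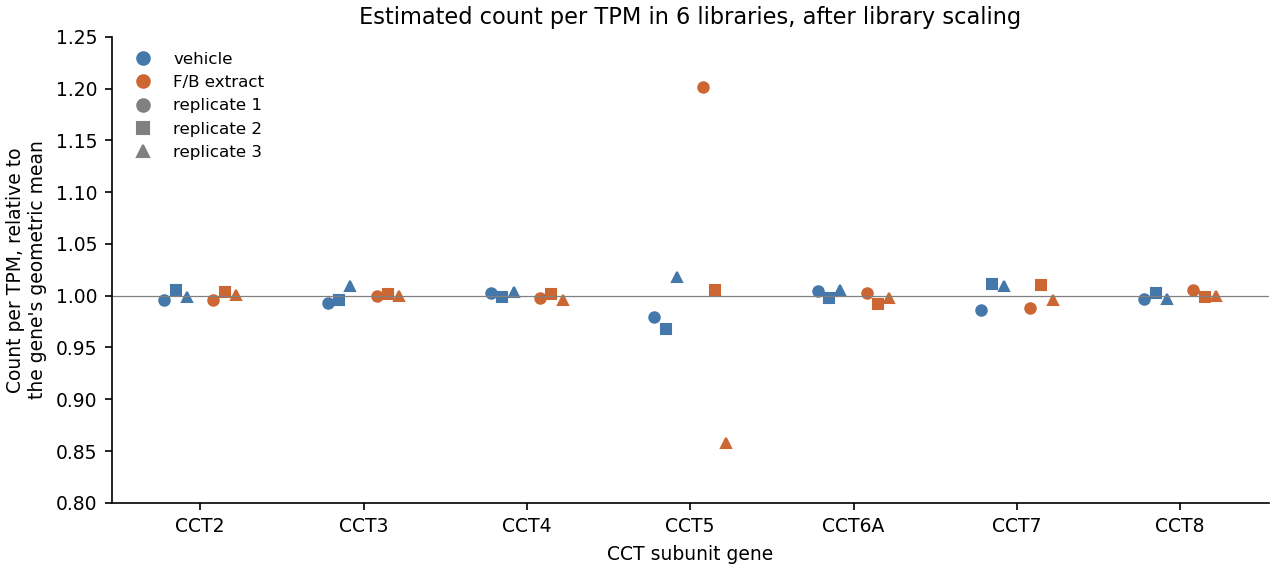
Estimated count per TPM (y axis, relative to each gene's geometric mean, library scale removed) for the 7 CCT subunit genes (x axis) in each library (symbols by replicate). CCT5 is at 1.20 in extract replicate 1 and 0.858 in extract replicate 3, while the other 6 genes stay between 0.986 and 1.01.

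Among partners of the chaperonin, 3 of 14 cofactors were listed, all subunits of prefoldin, which delivers unfolded actin and tubulin. PFDN2 had 2053, 2253 and 2175 normalised counts with vehicle and 1862, 1719 and 1620 with extract, a change of -0.32 (SE 0.06) with an adjusted p of 0.0138 by edgeR. PFDN5 fell by 0.19 (adjusted p = 0.0305 by edgeR), and PFDN1 was at -0.24 without passing (adjusted p = 0.0554). Thus 2 of the 3 were called lower, where 53.1% of all listed genes were. All 3 stayed below 0 on the 4 other scales, where 0 to 1 of them were called (7.83% to 19.5% of all listed genes were called lower).

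Of 19 actin, actin-related and tubulin genes, 3 were listed, with 0 tubulins among them. All 3 were called lower, where 53.1% of all listed genes were. ACTB, the gene of beta-actin, had 81661, 93773 and 90613 normalised counts with vehicle and 76178, 73035 and 64901 with extract, a change of -0.31 (SE 0.07) with an adjusted p of 0.0322 by edgeR. ACTG1, of gamma-actin, was at -0.28 (adjusted p = 0.0363). The sequences of these genes are near identical and have many copies, so their counts are uncertain. ACTR3, a subunit of the actin-nucleating Arp2/3 complex, was at -0.15 (adjusted p = 0.0331), and turned to 0.003 with TMM and 0.02 with the DESeq2 factors. In normalised counts extract replicate 3 was the lowest library for both actin genes, as for 6 of the CCT genes. The median of all listed genes, relative to the group mean, was also lowest there, at -0.02. The share of listed genes with their lowest count in that library was not analysed here. In TPM it was the lowest library for CCT3 and CCT7 only among the CCT genes. On the 4 other scales 0 to 1 of these 3 genes were called lower, as were 7.83% to 19.5% of all listed genes.

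Of 5 tubulin folding cofactors, which act after the chaperonin, 2 were listed and went in opposite directions. TBCD rose by 0.24 (SE 0.06, edgeR adjusted p = 0.0488), where 320 of the 1099 listed genes were called higher. It also passed on the 4 other scales, where 371 to 387 were called higher. With the size factors used, 387 listed genes were higher, called or not. TBCA was at -0.22 without passing (adjusted p = 0.0741). Of 17 other known clients, among them CDC20 and PLK1, 0 were listed, as was the case for TCP1, the testis form CCT6B and CCT8L2.

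Of 29 genes of the mitochondrial chaperonin and the HSP70 and HSP90 systems 6 were listed, with a median of -0.24. Of these 4 fell, where 53.1% of all listed genes were called lower. HSPE1, the lid of the mitochondrial chaperonin, was at -0.40 (SE 0.05, edgeR adjusted p = 0.00373), and FKBP4, CHORDC1 and AHSA1, cofactors of HSP90, were at -0.29, -0.26 and -0.23. HSPH1 at -0.19 and HSPA4 at -0.15, both nucleotide exchange factors of HSP70, did not pass (adjusted p = 0.0726 and 0.0575). On the 4 other scales 1 of the 6 was called lower, as were 7.83% to 19.5% of all listed genes. HSPA4 turned to 0.004 with TMM and 0.02 with the DESeq2 factors. MYC, a transcription factor of growth genes, and its partner MAX fell by 0.36 and 0.20 (adjusted p = 0.0319 and 0.0248 by edgeR), and 0 to 1 of them passed on the 4 other scales.

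Of other multi-subunit machines, 9 of 31 proteasome subunits were listed, all lower, from -0.41 (PSMA2) to -0.17 (PSMC6), with a median of -0.21 and 7 called lower, against 53.1% of all listed genes. Of 35 translation initiation factors 10 were listed, with a median of -0.22, 6 called lower, EIF2S1 lowest at -0.34 and EIF5 highest at 0.14. On the 4 other scales 0 to 1 members of each list were called lower (7.83% to 19.5% of all listed genes), and 3 proteasome genes turned higher with DESeq2 size factors. EIF5, which did not pass with the size factors used (edgeR adjusted p = 0.0800), was called higher on each of the 4, at 0.22 to 0.31. So were 371 to 387 of the 1099 listed genes on those scales, where 387 were higher with the size factors used. EIF5B turned to 0.013 with DESeq2 size factors. The median of the CCT genes, -0.18, was nearer to 0 than those of both lists and of all listed genes. No test of that difference was made.

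The listed genes whose profile over the 6 libraries was most like the mean profile of the 7 CCT genes were S100A16, a calcium-binding protein (Pearson r = 0.9997), PVR, a cell adhesion receptor (0.995), RPA2, a subunit of the single-strand DNA binding protein RPA (0.994), KLF4, a transcription factor (0.994), and PRDX6, a peroxiredoxin (0.993). They were at -0.37, -0.28, -0.34, -0.46 and -0.18 as log2 fold changes. The points share libraries and size factors and the genes were selected for a group difference. Of 1031 genes compared, 43.2% had an r of at least 0.9. The members' own r with that profile ran from 0.883 (CCT4) to 0.989 (CCT2).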

How the data were processed

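The authors deposited 1 table of 1099 genes with estimated counts, TPM per library, and their own fold change (a ratio), log2 fold change, p-value and adjusted p-value, per the file headers. The table's name gives DESeq2. The submitters' processing notes name GRCh38.p13. Aligner, counter and annotation: not given in the sources used here. Columns were tied to samples through library names in the labels.

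Adjusted p-values match Benjamini-Hochberg adjustment of the deposited p-values for 11289 genes. Estimated counts were rounded and divided by size factors fitted so that DESeq2 (version 1.42.0) gives the deposited fold changes (median absolute log2 difference 6.5e-05): 0.939, 1.23 and 1.05 for vehicle, 0.920, 0.959 and 0.935 for extract. The quasi-likelihood test of edgeR (version 4.0.16; limma 3.58.1, R 4.3.3), tested on simulated data first, was run on all listed genes with adjustment over 11289 genes and a threshold of 0.05. The filter on low counts removed 0 genes. SE is the absolute log2 fold change over the square root of F. Directions are extract over vehicle. The spread was estimated from genes selected on the same libraries, so p-values may be too small. Other scales, DESeq2, limma-voom, 2 other filters, a replicate block and leaving out each library were alternatives.

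Named genes were the 7 members, listed genes of the chaperone, client and MYC lists, the ends of 2 comparison lists, and the 5 genes most like the members by Pearson r (at least 5 TPM in either group). The members and lists were chosen with earlier results of these data known.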

Additional observations from a re-analysis of the deposited data

How the results depend on the processing

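The number of CCT genes called lower, 5 with the size factors used, was 0 with the scale behind the TPM values and, over the listed genes, 0 with sums, 0 with TMM size factors and 0 with those of DESeq2. Leaving out each library in turn gave 0 to 6. The members' median log2 fold change moved from -0.18 to -0.0969, -0.0433, -0.025 and -0.0052 on those 4 scales in turn, and stayed between -0.20 and -0.16 when a library was left out. CCT4 was at 0.0163 with TMM and 0.0356 with DESeq2 size factors, and no other member changed sign in any setting. Scales over the listed genes centre on selected genes by construction. The cause of the loss on the TPM scale was not tested. The DESeq2 Wald test called 7, limma-voom 5, and 2 other filters 5. Adjustment over the listed genes alone called 7, as it did all 712 lower genes. With the replicate number as a block 0 were called (edgeR adjusted p from 0.0534 to 0.187). There 7 had an unadjusted p under 0.05, but as genes listed for a small p on these libraries. Same-numbered libraries of the groups correlated at -0.23, -0.01 and -0.03 in their deviations, and differently numbered ones at -0.21 to 0.24. No pairing by number was seen. These values cannot settle it, since deviations from a mean of 3 libraries are tied to each other and the labels do not say. The largest pair difference in log2 ratio was 0.076 with counts, 0.082 with TPM, and 0.056 to 0.12 when a library was left out. All listed genes called lower went from 584 to 214, 126, 87 and 86 on the 4 scales, 232 with the block, and 128 to 570 when a library was left out. Those called higher went from 320 to 371, 386, 385 and 387 on the 4 scales, 90 with the block, and 50 to 287 when a library was left out.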

Other observations

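In the authors' table all 7 CCT genes carry annotation terms on the placement of telomerase RNA in Cajal bodies and on telomere maintenance by telomerase, a known function of the chaperonin, which folds a subunit of that enzyme. Besides the members, 2 listed genes carry the telomerase RNA term, DKC1 and NAF1, and they are given here as genes chosen after their values were seen. DKC1, a protein of the particles that hold this RNA, had 3648, 3938 and 4180 normalised counts with vehicle and 3277, 3068 and 2939 with extract. It changed by -0.34 (SE 0.06), with an adjusted p of 0.0100 by edgeR, and by -0.26 with a p of 0.0176, adjusted, on the TPM scale. NAF1, an assembly factor of the same particles, had 559.9, 557 and 543 with vehicle and 420, 419 and 451 with extract, and changed by -0.36 (SE 0.07, adjusted p = 0.0124 by edgeR). Both stayed below 0 on the 4 other scales, where DKC1 passed on 1 and NAF1 on 0. Both were further down than any CCT gene, as were most of the 712 lower genes. The decrease of CCT3, the largest of the 7, exceeded that of 20.5% of them. GAR1 and NOP10, also looked up as telomerase genes, were at -0.39 and -0.23 (adjusted p = 0.0205 and 0.0488 by edgeR) and passed on 0 of the 4. WRAP53, NHP2 and TERT were looked up too and were not listed. Of all listed genes 53.1% were called lower with the size factors used, and 7.83% to 19.5% on the 4 other scales.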
